A study of Xenopus laevis with 24 samples.

Results

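The genes described here are 200 of the 44478 genes listed for cultured Xenopus laevis foregut tissue. Their RNA changed within a set limit in control explants between stages NF25 and NF33 and was lower by stage NF38. They were chosen on TPM (a level corrected for transcript length and set to the same total in every library), as log2(mean TPM of 3 libraries + 1). A gene had to change by less than 1 between control NF25 and control NF33, and to be at least 1 lower in control NF38 than in control NF33. It also had to be less than 0.8 higher in rfx6 morphants than in controls at NF25, and less than 0.8 lower under BMS493 than in controls at NF25. Of 765 genes with that control fall, 302 were steady before it. The NF25 limits left out 37 of these, 19 for the rfx6 limit, 19 for the BMS493 limit and 1 of them for both. The remaining 265 genes were ranked by the size of the control fall and the first 200 were kept.

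Foregut endoderm and mesoderm give rise to organs such as the lung, liver, pancreas, stomach and duodenum, and many early regional programmes are switched off as these organs begin to differentiate. Rfx6 is a transcription factor of the RFX family, known in mouse and human for its part in forming endocrine cells of the pancreas and intestine. Retinoic acid, made from vitamin A, acts through nuclear receptors and divides the early foregut into regions along its length.

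RNA was sequenced from explants of foregut mesoderm with endoderm, cut from wild-type embryos (NXR_0031) at NF15 and cultured at 15 °C, in 24 libraries of 19433955 to 31005048 counts. Each of the 8 groups had 3 libraries, and each library came from a pool of 8 explants. Controls at NF25, NF33 and NF38 had received 2.5 ng of a morpholino oligonucleotide with 5 mismatched bases and were kept in 0.1% DMSO. The rfx6 morphants at NF25, NF33 and NF38 had received 2.5 ng of a translation-blocking morpholino against rfx6 at the 2-cell stage, which limits protein made from the message and need not change the message itself. The BMS493 groups at NF25 and NF33 were cultured from dissection onward with 250 nM of this inverse agonist of retinoic acid receptors, and BMS493 at NF38 was not analysed here. Whether the BMS493 groups also carried mismatch oligonucleotide, or the morphants DMSO, is not given in the labels. The batch tag of the labels repeats the stage, so stage and batch cannot be told apart. Comparisons between treatments at 1 stage lie within 1 batch tag.

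Genes carry only numbers in the files, and 0 of the 44478 identifiers matched the RefSeq gene table. Members are therefore called by their identifiers, with no function given to any of them. The injected target was not followed, and the labelled tissue was not checked against marker genes. Xenopus laevis is allotetraploid, and reads of near-identical copies can be split between identifiers, which makes the value of any 1 identifier uncertain.

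The values that chose the members are given first, as a description. The control fall from NF33 to NF38 ran from 1.08 to 3.36 on the log2(mean TPM + 1) scale, with a median of 1.27. At the edge of the list, the 199th and 200th members had falls of 1.08 and 1.08, and the next 2 genes had falls of 1.07 and 1.07. "Steady" covered a drift: the median difference between control NF33 and control NF25 was -0.35, with 132 members lower at NF33 and 68 higher. In counts, the control fall passed a 2-fold change at an edgeR adjusted p under 0.05 in 181 of the 200 members, against 6.34% of all 28313 genes tested, and 0 members were higher by as much, against 10.5%. With no limit on the fold, 190 members were lower, against 26.5% of all genes, and 1 was higher, against 27.8%. That contrast chose the members and nothing is read from these counts.

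The rule used both control stages, so a separation of their libraries was favoured in advance. The counts below describe the members, were not made over all genes, and nothing is read from them. Within control NF33, the SD of TPM was 5.47% of the mean in the median member, and over 50% of the mean in 16 members. The 3 control NF33 libraries lay above all 3 control NF38 libraries in 191 members and overlapped in 9. Of those 9, 6 had a mean under 10 TPM in control NF33, and 3 were at 0 TPM in at least 1 control NF33 library. The member with the largest fall, XBXL10_1g703, had 32.16, 31.64 and 31.22 TPM in the control NF33 libraries and 2.45, 2.08 and 2.01 TPM at NF38. The groups stood far apart, and the rfx6 morphants of NF38, at 7.27, 7.5 and 8.22 TPM, lay between them. The second in rank, XBXL10_1g11828, is a different case. It had 0, 14.09 and 0 TPM in control NF33, which was 2 reads in 1 library, and 0 TPM in all 3 control NF38 libraries. It is 1 of 3 members that did not pass the filter on low counts, so its place in the list rests on single reads.

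The control fall was also read in libraries that had not chosen the genes. When the rule was applied to 2 of the 3 replicates of each group, and the third was kept out, the 200 genes chosen had a median control fall of 1.23, 1.24 and 1.24 in the library left out (replicates 1, 2 and 3 in turn). A fall of at least 1 was seen there in 145, 145 and 150 of the 200 genes. The share of all genes with such a fall was not computed. Of the 200 members chosen on all replicates, 151, 155 and 165 were chosen again. The lists read here thus differ in part from the members, and the values describe those lists.

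Members spanned more than 3 orders of magnitude in level. In control NF33, 73 had a mean under 10 TPM, 91 lay from 10 to 100, 28 from 100 to 1000, and 8 were at 1000 or more. Those 8 held 65.1% of the members' summed TPM, and the first 4 held 45.1%. The highest, XBXL10_1g42200, had 6117, 5826 and 5998 TPM in control NF33 and 1781, 1820 and 1777 TPM in control NF38. Its rfx6 morphant libraries had 8673, 8198 and 8270 TPM at NF33 and 3497, 3390 and 3467 TPM at NF38. At both stages the morphant libraries lay above the controls without overlap, and the BMS493 libraries of NF33, at 4804, 4345 and 4617 TPM, lay below the controls. The next, XBXL10_1g10880, had 3603, 3398 and 3594 TPM in control NF33, against 7044, 6822 and 6660 TPM in rfx6 NF33 and 3062, 2634 and 2923 TPM in BMS493 NF33. It showed the same order of the 3 groups, again without overlap. XBXL10_1g10880 was already falling in controls before NF33, with 6275, 6655 and 6322 TPM in control NF25.

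Summed over all 200 members, TPM was 46537 ± 1148 (SD, n = 3 here and below) in control NF25, 35857 ± 672 in control NF33 and 12569 ± 88.3 in control NF38. In rfx6 morphants the sum was 51430 ± 1591 at NF25, 53775 ± 1250 at NF33 and 23267 ± 186 at NF38. Under BMS493 it was 52138 ± 1768 at NF25 and 32280 ± 1363 at NF33. In morphants the libraries of NF25, from 49877 to 53056 TPM, and of NF33 overlapped, while in controls and under BMS493 those of NF33 lay below those of NF25. The overlap in morphants rested on the 4 most abundant members. Without them the morphant sums ran from 24312 to 25578 TPM at NF25 and from 26382 to 27105 TPM at NF33, without overlap. The rule had capped morphant values at NF25, so this order is a description. At NF33 the morphant libraries, from 52820 to 55189 TPM, lay above the control libraries, from 35163 to 36504 TPM, and the BMS493 libraries, from 30801 to 33485 TPM, lay below both. Without the 4 most abundant members the NF33 sums were 26680 ± 378 TPM in morphants, 19703 ± 216 TPM in controls and 19169 ± 520 TPM under BMS493, and the last 2 groups then overlapped. At NF38 the sums without these 4 were 12164 ± 60.4 TPM in morphants and 7384 ± 38.1 TPM in controls. The median member gave the same order, with 15.0 TPM in control NF33, 20.9 TPM in rfx6 NF33 and 14.2 TPM in BMS493 NF33, then 5.14 TPM in control NF38 and 8.87 TPM in rfx6 NF38. In bulk tissue, fewer cells of a type and less RNA per cell cannot be told apart.

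**Figure D1:**
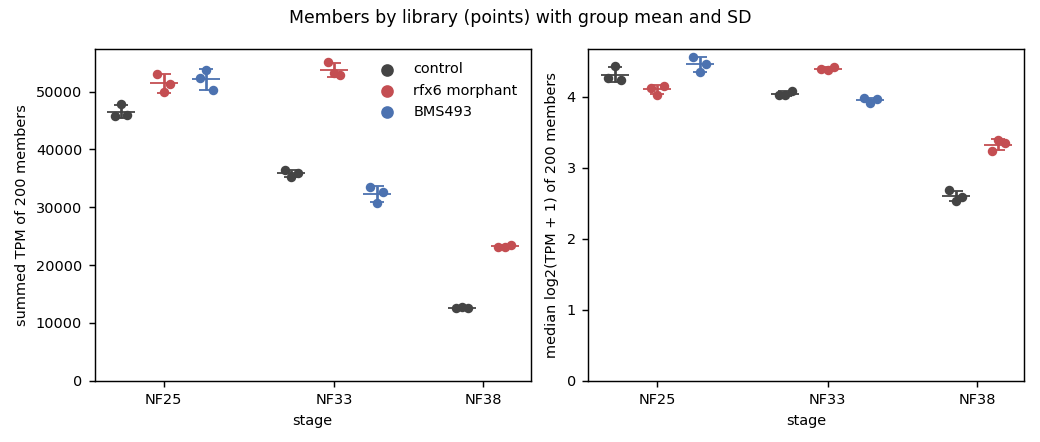
Summed TPM of the 200 members (left panel, TPM) and the median log2(TPM + 1) of the members (right panel) by stage, with points for single libraries, horizontal marks for group means and bars for the SD of 3 libraries. The morphant libraries of NF33 lie at 52820 to 55189 TPM, above all control and BMS493 libraries of that stage, and at NF38 the morphant mean is 23267 TPM against 12569 TPM in controls.

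**Figure D2:**
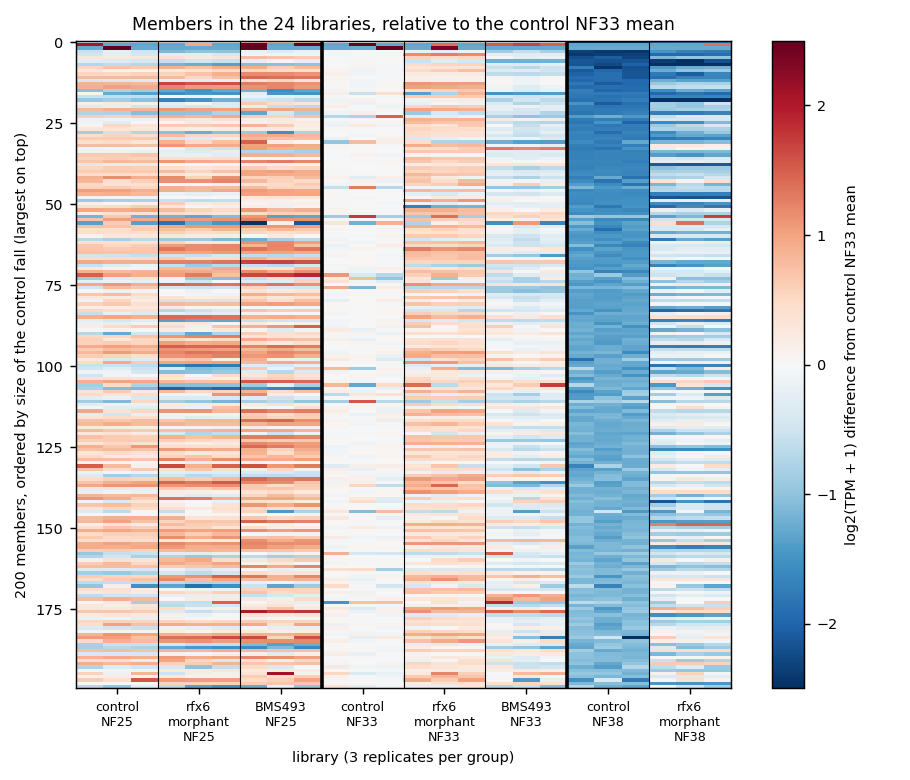
Each member (rows, ordered by the size of the control fall) in each of the 24 libraries (columns, 3 per group), coloured by its log2(TPM + 1) difference from the mean of the control NF33 libraries, with colours ending at 2.5 either way. Control NF38 columns are mostly blue because the rule chose them so, and the rfx6 NF38 columns are paler, with a median difference from control NF33 of -0.62 against -1.27 in control NF38.

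Between NF33 and NF38 the rfx6 morphants also lost RNA of these genes. Neither morphant group of those stages was used to choose the members. In the edgeR quasi-likelihood test, 87 of the 200 members (43.5%) fell at least 2-fold at an adjusted p under 0.05, against 5.42% of all 28313 genes tested, and 0 rose as much, against 13.8% of all genes. With no limit on the fold, 171 members (85.5%) fell, against 27.6% of all genes, and 5 rose, against 32% of all genes. The median log2 fold change was -0.83 over the 197 members tested and 0.03 over all genes. Of the members tested, 185 reached the level of the low-count filter in all 3 libraries of all 8 groups, and 12 did so in 1 to 7 groups. This comparison runs across batch tags, so stage and batch cannot be told apart in it.

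The steepest morphant falls were large. XBXL10_1g8947 had 12.81, 15.94 and 16.73 TPM in rfx6 NF33 and 1.18, 0.9 and 1.05 TPM in rfx6 NF38. Its log2 fold change was -3.67 (edgeR, SE 0.140, adjusted p = 1.57e-35). It also ended lower in morphants than in controls, which had 3.15, 3.33 and 3.52 TPM at NF38. Before that its control libraries had risen, from 6.78, 7.31 and 6.41 TPM at NF25 to 13, 15.26 and 14.05 TPM at NF33. XBXL10_1g37507 had 34.54, 36.56 and 34.62 TPM in rfx6 NF33 and 3.07, 3.02 and 3.23 TPM in rfx6 NF38, a log2 fold change of -3.32 ± 0.0699 (SE; adjusted p = 9.75e-53, edgeR). This gene started higher in morphants, since the control NF33 libraries had 14.24, 14.99 and 14.98 TPM. At NF38 its morphant libraries still lay above the controls, which had 1.94, 2.07 and 2.11 TPM, without overlap.

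**Figure D3:**
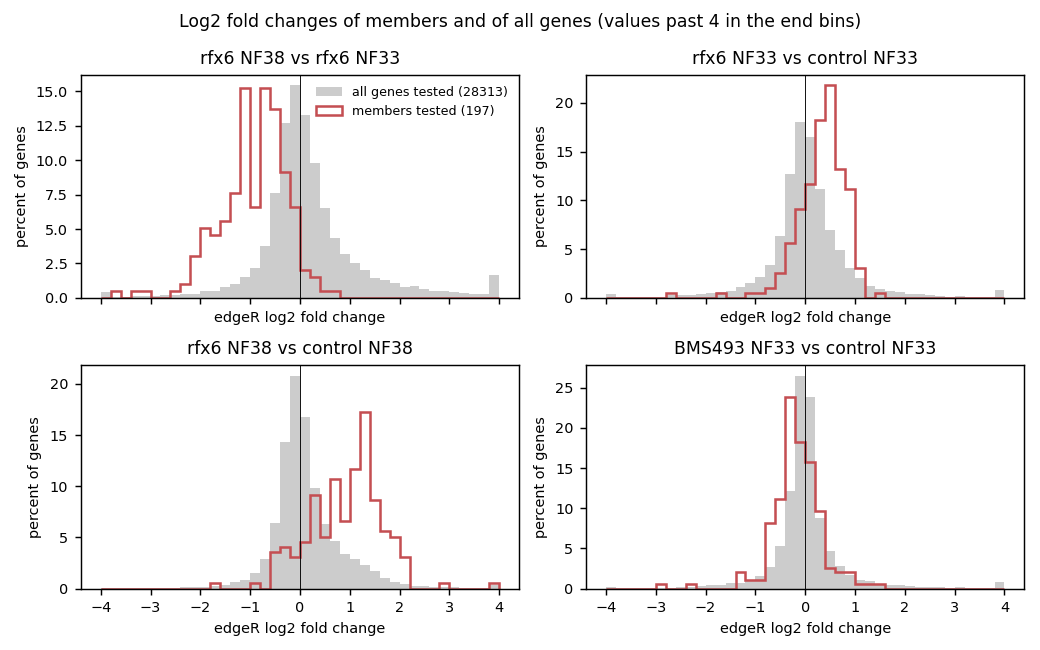
Share of genes (percent, y axis) by edgeR log2 fold change (x axis) in 4 comparisons, in grey for all 28313 genes tested and in red outline for the 197 members tested, with values past 4 in the end bins. The red outline has its median at -0.83 for rfx6 NF38 against rfx6 NF33, at 0.40 for rfx6 against control at NF33, at 1.05 for rfx6 against control at NF38 and at -0.18 for BMS493 against control at NF33.

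Side by side, on the log2(mean TPM + 1) scale, the median change from NF33 to NF38 was -1.27 in controls and -0.93 in morphants. The control value was fixed in part by the rule, which kept the steepest control falls, so the difference between the 2 was not tested. In 194 of the 200 members the morphant value was below 0. The share of all genes below 0 was not computed, and their median was -0.09 in a fit on log2(TPM + 1). Of the 5 members that rose in morphants by the edgeR test, the 2 with the largest rise are named here after their values had been seen. XBXL10_1g9855 had 21.84, 21.94 and 21.13 TPM in rfx6 NF33 and 27.97, 32.68 and 32.02 TPM in rfx6 NF38, a log2 fold change of 0.70 (edgeR adjusted p = 9.64e-20). The 2 groups did not overlap. XBXL10_1g26282, a low gene, had 2.42, 2.43 and 2.62 TPM at NF33 and 2.77, 3.23 and 3.05 TPM at NF38, a log2 fold change of 0.46 (edgeR adjusted p = 0.00250). The other 3 had log2 fold changes of 0.16, 0.24 and 0.38. In TPM, the libraries of NF33 and NF38 overlapped in the members at 0.16 and 0.24, and not in the member at 0.38. The count of rising members was 3 in every fit that left out 1 library.

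**Figure D4:**
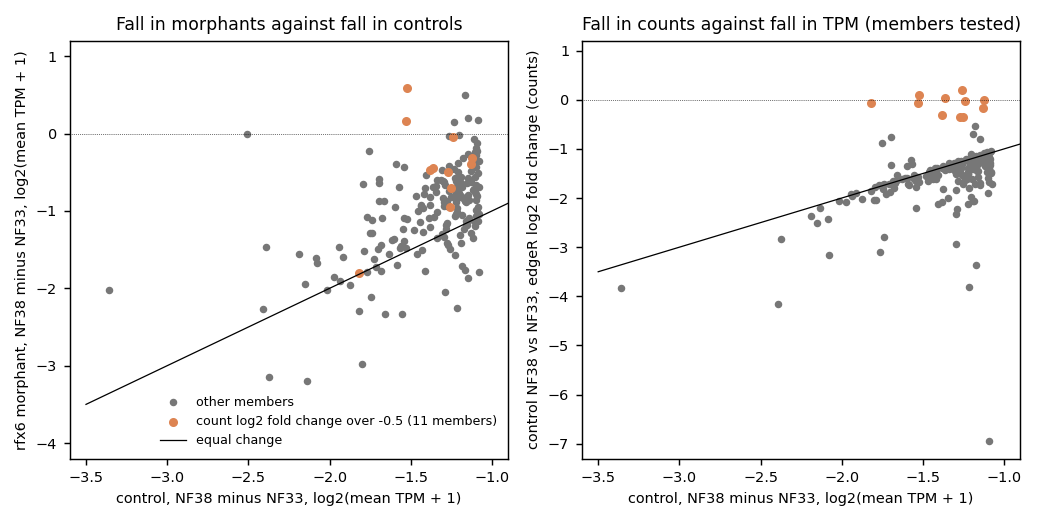
Left, change from NF33 to NF38 in rfx6 morphants (y axis) against that in controls (x axis) for the 200 members, both as differences of log2(mean TPM + 1). Right, the control change in counts (y axis, edgeR log2 fold change) against the control change in TPM (x axis) for the 197 members tested. The line marks equal change. The medians on the left are -0.93 in morphants and -1.27 in controls, and the 11 orange points on the right have a lower TPM but a count log2 fold change over -0.5.

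At NF33 the members were somewhat higher in rfx6 morphants than in controls, mostly by less than 2-fold. With no limit on the fold, 123 of the 200 members (61.5%) were higher at an edgeR adjusted p under 0.05, against 25.5% of all genes, and 21 (10.5%) were lower, against 24.3%. By level in control NF33, the members' median log2 fold change was 0.39 under 10 TPM and 0.42 from 10 to 100. It was 0.45 from 100 to 1000 and 0.47 at 1000 or more. The any-fold shares of all genes were not matched to these levels. A change of at least 2-fold was reached by 7 members (3.5%) upward, against 6.63% of all genes, and by 2 (1%) downward, against 5.64%. Matched by level, the upward shares were 5.48% of members against 9.26% of all genes under 10 TPM in control NF33. From 10 to 100 TPM they were 2.2% against 1.05%, and from 100 to 1000 TPM 3.57% against 1.13%. At 1000 TPM or more they were 0% and 0%. Downward, in the same order of levels, they were 1.37% against 6.81%, 1.1% against 2.98%, 0% against 3.67% and 0% against 6.67%. The members' shares rest on few genes. The median log2 fold change was 0.40 over the members tested and 0.01 over all genes. The control NF33 libraries had helped to choose the members, and genes whose control NF33 value was high by chance were favoured, which can lower the morphant difference. In the replicate left out of the choice, the median difference on the log2(TPM + 1) scale was 0.41, 0.51 and 0.46, with 153, 164 and 159 of the 200 genes above 0. The share of all genes above 0 was not computed there. With all libraries, the median of all genes tested was 0.06 in a fit on that scale. The number of members at least 2-fold higher was 11 without control NF33 replicate 1.

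The largest rises at NF33 were in XBXL10_1g31257 and XBXL10_1g37507. XBXL10_1g31257 had 305, 547 and 359 counts, not adjusted for depth, in the morphant libraries and 152, 135 and 129 counts in the controls, with no overlap. In TPM it had 15.25, 22.01 and 13.07 in morphants and 8.09, 11.47 and 4.52 in controls. For this member, counts per TPM thus differed between the control libraries. Its control counts were 323, 312 and 373 at NF25 and 108, 64 and 97 at NF38. In counts it was thus already falling in controls before NF33. Its log2 fold change was 1.52 (edgeR, SE 0.112, adjusted p = 8.58e-20). XBXL10_1g37507, whose TPM values are given above, had a log2 fold change of 1.15 ± 0.0580 (SE; adjusted p = 1.25e-28, edgeR). The 2 members that were at least 2-fold lower were XBXL10_1g20684 and XBXL10_1g2485. XBXL10_1g20684 had 3.94, 5.9 and 6.06 TPM in rfx6 NF33 against 14.6, 14.91 and 15.01 TPM in control NF33, a log2 fold change of -1.77 ± 0.122 (SE; adjusted p = 8.38e-10, edgeR). At NF33 its morphant libraries were thus already near the control libraries of NF38, which had 5, 3.57 and 4.72 TPM. XBXL10_1g2485 had 2.25, 1.92 and 1.7 TPM in rfx6 NF33 against 3.86, 4.29 and 4.1 TPM in controls, a log2 fold change of -1.18 (edgeR adjusted p = 1.39e-09).

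At NF38 most members were higher in morphants than in controls, by a size that the choice of members can raise. At least 2-fold and at an edgeR adjusted p under 0.05, 103 of the 200 members (51.5%) were higher, against 9.01% of all genes, and 1 was lower, against 1.92%. With no limit on the fold, 159 members (79.5%) were higher, against 25.4% of all genes, and 16 (8%) were lower, against 21.7%. The median log2 fold change was 1.05 over the members tested and 0.01 over all genes. The control NF38 libraries had helped to choose the members. Genes whose control NF38 value was low by chance were favoured, which can raise these counts and this median. In the replicate left out of the choice, the median difference on the log2(TPM + 1) scale was 0.59, 0.75 and 0.72, with 162, 158 and 164 of the 200 genes above 0. The share of all genes above 0 was not computed there. With all libraries, the median of all genes tested was -0.02 in a fit on that scale. On the same scale the members as chosen had a median of 0.78.

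XBXL10_1g9855 stood out among the named members at NF38. Its morphant libraries, at 27.97, 32.68 and 32.02 TPM, were far above the controls, at 4.36, 4.39 and 4.52 TPM, a log2 fold change of 2.86 ± 0.0619 (SE; adjusted p = 1.26e-50, edgeR). In controls this gene was at 11.16 ± 0.337 TPM at NF33, so from NF33 to NF38 it was lower in controls and higher in morphants. XBXL10_1g16408 had the largest fitted change and rests on few reads. It had 7, 2 and 5 counts in the morphant libraries and 0 in all 3 controls, which, against a floor of 3 counts over the group, is at least 4.61-fold higher. Its edgeR adjusted p was 0.00178, and over the alternatives it ran from 0.000689 to 0.318. The 1 member at least 2-fold lower was XBXL10_1g8947, with a log2 fold change of -1.61 ± 0.170 (SE; adjusted p = 6.20e-13, edgeR).

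Member by member, the stages fell into a few combinations by the edgeR test with no limit on the fold. Of the 200 members, 115 (57.5%) were higher in morphants than in controls at both NF33 and NF38, against 15% of all genes tested. Another 36 (18%) were not called at NF33 and higher at NF38, against 8.13% of all genes, and 8 (4%) were lower at NF33 and higher at NF38, against 2.28%. A fall in morphants together with a level above controls at NF38 was seen in 138 members (69%), against 7.54% of all genes, and a fall together with a level below controls in 15 (7.5%), against 8.94%. Both comparisons at NF38 share the morphant libraries of that stage, and low control NF38 values were favoured by the rule, so these counts are a description. By level, the members at least 2-fold higher in morphants at NF38 were 42 of 73 (57.5%) under 10 TPM in control NF33, against 11.2% of all genes tested in that band. From 10 to 100 TPM they were 45 of 91 (49.5%), against 4.54%, and from 100 to 1000 TPM 13 of 28 (46.4%), against 3.67%. At 1000 TPM or more they were 3 of 8 (37.5%), against 4.89%.

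**Figure D5:**
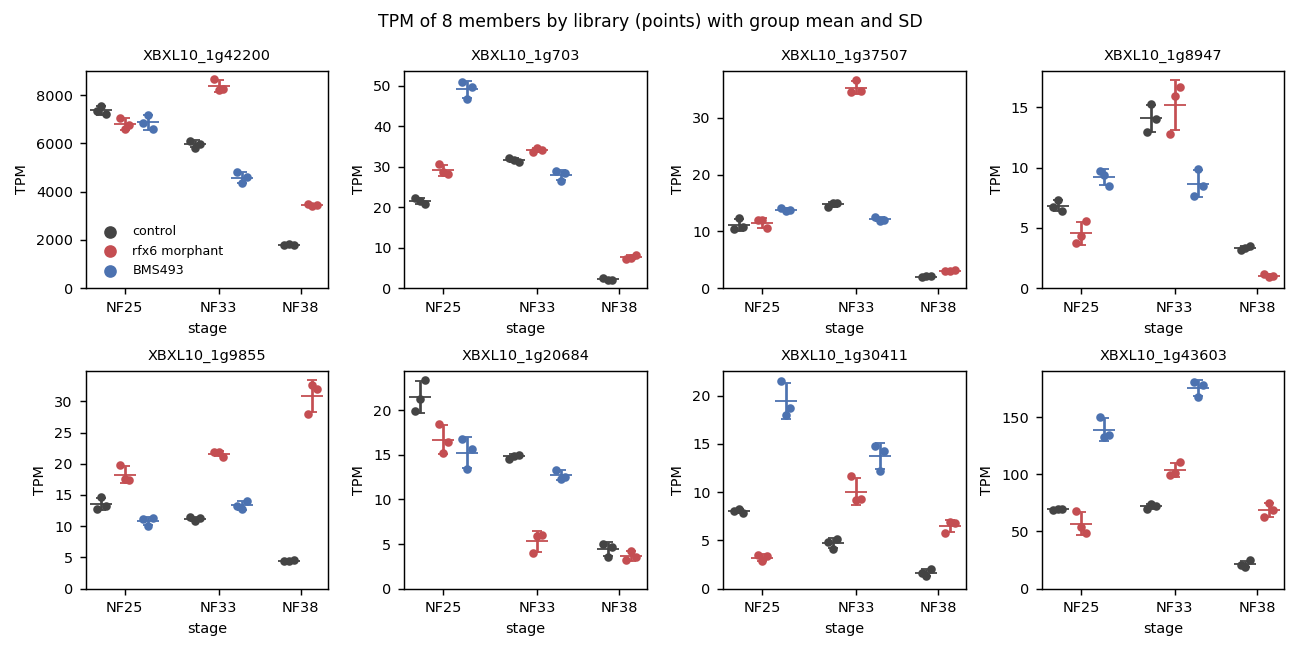
TPM (y axis) by stage (x axis) for 8 of the members named in the text, with points for single libraries, horizontal marks for group means and bars for the SD of 3 libraries. XBXL10_1g42200 and XBXL10_1g703 keep morphant levels above control levels at NF38, XBXL10_1g9855 is higher in morphants at NF38 (30.9 TPM on average) than at NF33 (21.6 TPM), and XBXL10_1g30411 and XBXL10_1g43603 are highest under BMS493.

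Under BMS493 at NF33, more members were lower than higher against controls, most of them by less than 2-fold. With no limit on the fold, 91 of the 200 members (45.5%) were lower than in controls at an edgeR adjusted p under 0.05, against 16.2% of all genes, and 31 (15.5%) were higher, against 12.8%. By level in control NF33, the members' median log2 fold change was -0.16 under 10 TPM and -0.21 from 10 to 100. It was -0.12 from 100 to 1000 and -0.31 at 1000 or more. The any-fold shares of all genes were not matched to these levels. Changes of at least 2-fold were few, with 7 members (3.5%) lower, near the 3.1% of all genes, and 3 (1.5%) higher, against 4.17%. Matched by level, the shares lower were 4.11% of members against 3.8% of all genes under 10 TPM in control NF33. From 10 to 100 TPM they were 4.4% against 1.71%, from 100 to 1000 TPM 0% against 1.13%, and at 1000 TPM or more 0% against 0.889%. The shares higher, in the same order of levels, were 2.74% against 5.92%, 1.1% against 0.488%, 0% against 0.376% and 0% against 0%. The median log2 fold change was -0.18 over the members tested and -0.02 over all genes. Since control values high by chance at NF33 were favoured, the choice can raise these counts of lower members. In the replicate left out of it, the median difference on the log2(TPM + 1) scale was -0.06, -0.21 and -0.12. There, 82, 59 and 73 of the 200 genes were above 0. The share of all genes above 0 was not computed there. With all libraries, the median of all genes tested was 0.00 in a fit on that scale. Both treatments share these control libraries, and their counts are each against controls alone.

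The 2 treatments were also compared directly at NF33, in libraries that had no part in the choice. At least 2-fold and at an edgeR adjusted p under 0.05, 36 of the 200 members (18%) were lower under BMS493 than in morphants, against 5.44% of all genes, and 2 were higher, against 5.14%. With no limit on the fold, 135 members (67.5%) were lower, against 24% of all genes, and 19 (9.5%) were higher, against 22.5%. These any-fold shares of all genes were not matched to the members' levels. The median log2 fold change was -0.57 over the members tested and 0.00 over all genes.

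A few members were higher under BMS493. XBXL10_1g30411 had 14.78, 12.2 and 14.27 TPM in BMS493 NF33 against 4.88, 4.13 and 5.19 TPM in control NF33, a log2 fold change of 1.53 ± 0.123 (SE; adjusted p = 1.26e-17, edgeR). The morphant libraries of NF33, at 11.63, 9.2 and 9.32 TPM, also lay above the controls. XBXL10_1g43603 had 180.53, 167.33 and 178.02 TPM under BMS493 against 70.01, 74.16 and 71.89 TPM in controls, a log2 fold change of 1.24 ± 0.0584 (SE; adjusted p = 1.67e-29, edgeR). Its morphant libraries of NF33, from 99.3 to 110.35 TPM, lay in between. Both genes were already higher under BMS493 at NF25, where the rule set no upper limit for this treatment. Mean TPM at NF25 was 19.45 under BMS493 against 8.05 in controls for XBXL10_1g30411. For XBXL10_1g43603 it was 139 against 69.5.

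The largest falls under BMS493 were in low genes. XBXL10_1g29878 had 25, 13 and 9 counts in BMS493 NF33 against 74, 94 and 78 in controls and 117, 167 and 128 in morphants, 3 groups without overlap. Its log2 fold change was -2.37 against controls (edgeR, SE 0.241, adjusted p = 2.42e-13) and -3.10 against morphants (edgeR adjusted p = 2.30e-20). XBXL10_1g5356 had 47, 40 and 30 counts under BMS493 against 101, 108 and 97 in controls, a log2 fold change of -1.37 ± 0.222 (SE; adjusted p = 4.67e-07, edgeR). This gene was already lower at NF25, with 1.05, 1.8 and 0.99 TPM under BMS493 against 2.4, 2.72 and 2.5 TPM in controls. Its morphant libraries of NF25, at 1.48, 1.22 and 1.12 TPM, were also below the controls. XBXL10_1g31257, the largest morphant rise at NF33, had 84, 78 and 97 counts under BMS493 and was -2.19 against morphants (edgeR adjusted p = 2.85e-26). The 2 members at least 2-fold higher under BMS493 than in morphants were XBXL10_1g20684, at 13.35, 12.33 and 12.51 TPM and a log2 fold change of 1.57 (edgeR adjusted p = 5.88e-09), and XBXL10_1g21658. The latter had 18.77, 21.74 and 19.33 TPM under BMS493, against 9.69, 10.18 and 9.49 TPM in morphants and 9.43, 10.52 and 9.44 TPM in controls, a log2 fold change of 1.10 against morphants (edgeR adjusted p = 9.56e-21).

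At NF25, where the rule set limits on both treatments, the median difference from controls on the log2(mean TPM + 1) scale was 0.06 in morphants and 0.22 under BMS493. From NF25 to NF33 the median change was 0.01 in morphants, -0.35 in controls and -0.74 under BMS493. These 3 medians are descriptions, since the control and NF25 values were used by the rule.

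Besides their course, the members could be compared with other genes in transcript length. Relative effective length, taken from counts per TPM with the gene of median length set to 1, had a median of 0.741 over 180 members with a value and 1.01 over 18588 genes. A value was given only to genes above a floor of counts and TPM in every library. At low TPM a floor in counts keeps longer genes, and its part in the gap was not tested. The gap followed the level in part. Among genes under 10 TPM in control NF33 the medians were 0.875 for members and 1.26 for all genes, from 10 to 100 TPM they were 0.783 and 0.847, and from 100 to 1000 TPM the members were the longer ones, at 0.581 against 0.486. At 1000 TPM or more the medians were 0.575 over 8 members and 0.276 over 214 genes.

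TPM and counts went apart in 11 members, whose control TPM was lower at NF38 while the edgeR log2 fold change of counts was over -0.5. In these members counts per TPM varied 2.78-fold to 8.68-fold over the 24 libraries, against a median of 1.01-fold over 170 other members and 1.02-fold over 18588 genes. A wide spread follows from how the 11 were picked, so these values only describe them. The median of the other members does not show single members that vary, such as XBXL10_1g31257 above. By counts, 4 of the 11 were lower and 1 was higher in control NF38 than in control NF33. That 1, XBXL10_1g2395, is named after its values had been seen. It had 28.68, 5.86 and 21.91 TPM but 1065, 1130 and 1065 counts in control NF33, and 9.17, 6.14 and 6.56 TPM but 1384, 1110 and 1434 counts in control NF38 (log2 fold change 0.20, edgeR adjusted p = 0.00161). Among the 181 members whose control fall was also called at least 2-fold in counts, 85 (47.0%) fell at least 2-fold in morphants from NF33 to NF38, against 5.42% of all genes, and 102 (56.4%) were at least 2-fold higher in morphants than in controls at NF38, against 9.01%. Asking for the fall in counts as well favours low control NF38 counts once more, which can raise the second share.

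Genes close to the members by the rule were set beside them, without a test. Of the 65 genes that met the limits but ranked past place 200, 21.5% fell at least 2-fold in morphants from NF33 to NF38 and 36.9% were at least 2-fold higher in morphants than in controls at NF38. Of the 37 genes left out by the NF25 limits, the shares were 37.8% and 18.9%. Of the 463 genes with the control fall that were not steady before it, they were 49.2% and 41.0%. Over all genes tested they were 5.42% and 9.01%. At NF33, 17.1% of these 463 genes were at least 2-fold higher in morphants than in controls, against 3.5% of the members and 6.63% of all genes tested. Only the members had to be steady up to control NF33, so the rule can set part of this gap, which was not tested. At any fold, the shares higher at NF33 were 62.6% of the 463 genes, 61.5% of the members and 25.5% of all genes tested.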

How the data were processed

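Per the submitters' processing notes, the authors used RSEM 1.3.0 and Bowtie2. Their roles, genome build, annotation and strand setting were not given in the sources used here. Estimated counts per gene, stored as whole numbers, and TPM are what the authors deposited. The deposited TPM values have the same sum in every library. The rule was applied to TPM with a pseudocount of 1. Members and lists were chosen with earlier results of these data known.

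The test on counts was that of edgeR 4.0.16 under R 4.3.3 (filterByExpr with minimum count 10 and minimum total 15, TMM, robust quasi-likelihood fit with 1 mean per group over all 24 libraries). Of 44478 genes 28313 were tested, 197 of them members, with Benjamini-Hochberg adjustment over all of them. The SE beside a log2 fold change is not an output of edgeR. It was worked back as the size of that change divided by the square root of the quasi-likelihood F statistic. A gene was called at an adjusted p under 0.05 and at least 2-fold. Calls with any fold were added after the data had been seen, and their shares over all genes were not matched to the members' levels. The script was tested on simulated data. Alternatives used limma 3.58.1 on log2(TPM + 1) and log2(TPM + 0.1), DESeq2 1.42.0, other scalings, no filter, the replicate block and each library left out. Intervals were not computed; p-values measure the spread between pools. A low count limits single genes: 3 counts over a group was the floor.

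The text names the 2 members with the largest control fall, the 2 with the highest TPM in control NF33 and, per comparison, the 2 largest called changes of at least 2-fold in each direction. Planned marker and pathway lists were not run, because 0 identifiers matched symbols. For rfx6 NF33 replicates 2 and 3, part of the description gives the name of replicate 1; title and library name were used.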

Additional observations from a re-analysis of the deposited data

How the results depend on the processing

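Of 327 counts of members under alternatives, 19 moved by more than 1.5 times, and all of them were small counts or the membership itself. With limma on log2(TPM + 0.1), members at least 2-fold higher in rfx6 NF33 than in control NF33 numbered 14, those lower with any fold 12, those higher with any fold in BMS493 NF33 than in rfx6 NF33 12, and those rising with any fold from rfx6 NF33 to NF38 1. With limma on log2(TPM + 1) the counts were 1 at least 2-fold lower and 12 lower with any fold in rfx6 NF33 than in control NF33, 1 at least 2-fold higher in BMS493 NF33 than in rfx6 NF33, and 1 rising with any fold in morphants. Another TMM reference library gave 3 rising members, and no filter on low counts gave 3. Leaving out 1 library at a time gave 3 to 3 rising members, 5 to 11 members at least 2-fold higher in rfx6 NF33 than in control NF33, and 1 to 2 at least 2-fold lower in rfx6 NF38 than in control NF38, the 2 being without control NF38 replicate 3. The cause was not tested.

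The counts of 87 members falling at least 2-fold in morphants and of 103 at least 2-fold higher in morphants at NF38 ran from 87 to 100 and from 73 to 103 over all alternatives. The replicate block gave 87 and 103. Same-numbered libraries had correlations of -0.0668 to 0.0243 over 15 pairs, and 4 pairs correlated best with their own number, so the numbers were not taken to pair samples. The median over members at NF38, morphants against controls, ran from 0.77 to 1.05. Limma on log2(TPM + 0.1) moved the median of all genes to -0.14 in rfx6 NF38 against rfx6 NF33 and to 0.10 in rfx6 NF33 against control NF33. Of 255 fold changes of named members under alternatives, 254 kept their direction at an adjusted p under 0.05, the exception being XBXL10_1g16408 with limma on log2(TPM + 1), at 0.36. In 3 the change was under 2-fold, all with limma on log2(TPM + 1): that one, XBXL10_1g2485 in rfx6 NF33 against control NF33 at -0.79, and XBXL10_1g21658 in BMS493 NF33 against rfx6 NF33 at 0.96.

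Membership depended on the pseudocount. With 0.1 in place of 1, 103 of the 200 members were chosen again, with 0.5 it was 166, and on CPM in place of TPM it was 139. Depth limits the low members: 3 had under 30 counts over the 3 control NF33 libraries.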
